A study of Mus musculus with 6 samples.

Results

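The genes described here are 9 enzymes and carriers of the retinoid cycle, chosen by symbol and not by any measured value: the retinol dehydrogenases Rdh5, Rdh8, Rdh10, Rdh11 and Rdh12, the transporter Abca4, the retinoid-binding proteins Rbp3 and Rlbp1, and the acyltransferase Lrat. All 9 are among the 24346 gene symbols of the tables. They were measured by RNA sequencing in whole retinas of mice at postnatal day 12, in 3 control and 3 triple-deficient libraries. Controls were Panky+/-, Panky-like+/- and Nrl-/-, and triple-deficient mice were Panky-/-, Panky-like-/- and Nrl-/-. By genotype every library is thus null for Nrl, without which mouse photoreceptors take on a cone-like instead of a rod identity, and the controls carry 1 mutant allele of each Panky gene. No retina with Nrl or with 2 intact copies of both Panky genes is compared here. Panky (Ankrd33) is known as a photoreceptor protein that lowers transcription driven by the homeodomain factor CRX. Panky-like is taken to be its paralog Ankrd33b, which the labels do not state.

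Light turns the 11-cis-retinal of an opsin into all-trans-retinal, and the retinoid cycle is the set of reactions that brings the 11-cis form back. Abca4 moves retinal adducts across the disc membrane of the photoreceptor, dehydrogenases of the photoreceptor reduce all-trans-retinal to retinol, and Rbp3 is abundant in the matrix between photoreceptors and pigment epithelium. In the pigment epithelium, Lrat esterifies retinol, the isomerase Rpe65 forms 11-cis-retinol, and Rdh5 oxidises it. Rlbp1 binds 11-cis-retinoids in the pigment epithelium and in Müller glia, the radial glia of the retina, and Müller glia are also described as a source of retinoid for cones.

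Values are FPKM (fragment counts scaled by transcript length and library size) as deposited, given as mean ± SD over n = 3 libraries per group. Changes are differences of log2(FPKM + 1), positive where triple-deficient retinas are higher. They were tested with limma over every gene whose mean reached 0.5 FPKM. From the steps of low values, the libraries held an estimated 18.1 to 27.1 M fragments, fewest in triple-deficient 3. That library also stood apart in base composition, since its deviations from the gene means correlated with GC content across genes at Spearman -0.59, against 0.06 to 0.30 in the other libraries. Ankrd33b was at 32.6 to 35.4 FPKM in controls and 1.31 to 1.81 FPKM in the mutants, and Ankrd33 at 104 to 109.7 and 50.5 to 59.6 FPKM. Every triple-deficient library lay below every control for both genes, but with 52.2% of its control mean left, Ankrd33 is not shown to be lost at the RNA level. Nrl transcripts were listed at 38.3 to 49.2 FPKM in controls and 51.3 to 53.7 FPKM in triple-deficient libraries (limma adjusted p = 0.861), and a value over the whole gene does not show whether a deleted part is transcribed. Cone markers were high, with Opn1sw, the short-wavelength cone opsin, at 1406 to 1568 FPKM. Gnat1, a rod transducin subunit, was at 0.269 to 0.514 FPKM, whereas Gngt1, also a rod transducin subunit, stood at 258 to 367 FPKM. Of 10 rod markers, 8 had a mean of at least 0.5 FPKM. Control 1 held the most lens marker transcripts, 12.5 FPKM summed over 7 genes against 1.16 to 2.20 FPKM in the other libraries.

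The comparison of genotypes asks whether retinas labelled homozygous mutant for both Panky genes differ from heterozygous ones in the retinoid cycle. None of the 8 genes that could be tested passed an adjusted p of 0.05, and Lrat lay below the filter. Over all genes, 4 of 14325 passed, or 0.0279%, of which 0.00698% were higher and 0.0209% lower in triple-deficient retinas. The lower ones include the targeted genes Ankrd33b (limma adjusted p = 4.6e-07) and Ankrd33 (limma adjusted p = 0.0027). At an unadjusted p below 0.05 there were 0 of the 8, where the background was 5.09%, and the groups did not overlap for 0 of the 8, where it was 10.5%. The median change of the 8 was 0.04, with 5 above 0 and 3 below, against a median of 0.003 and 51.8% above 0 over all genes tested. Changes ran from -0.12 for Rlbp1 to 0.13 for Rdh11, and their 95% intervals from -0.40 to 0.34. For 5 of the 8 genes the interval held no change beyond 1.2-fold in FPKM + 1 either way, which was so for 65.2% of all genes tested. Rdh5, Rdh11 and Rlbp1 were the exceptions. In bulk retina, fewer cells of a type and less RNA per cell cannot be told apart.

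**Figure D1:**
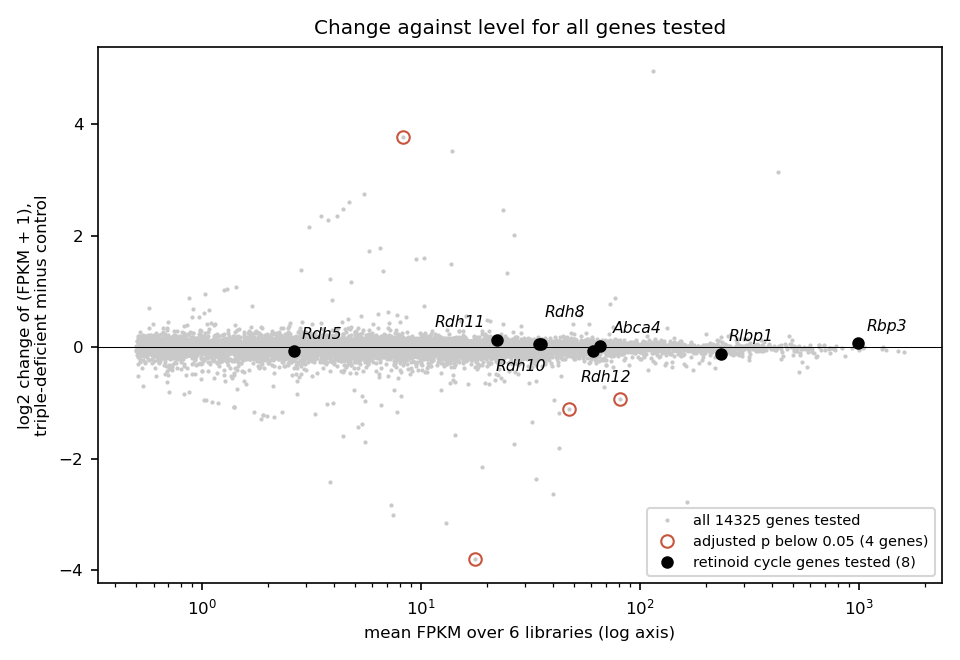
Log2 change of FPKM + 1 (vertical axis, triple-deficient minus control) against mean FPKM over the 6 libraries (horizontal log axis) for the 14325 genes tested. Black points are the 8 retinoid cycle genes tested, all between -0.12 and 0.13. Open red circles are the 4 genes with an adjusted p below 0.05, the targeted Ankrd33 and Ankrd33b among them.

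Among the carriers, Rbp3, also known as interphotoreceptor retinoid-binding protein, had the highest level of the 9 genes. Its values were 918, 951 and 1037 FPKM in control libraries 1, 2 and 3 and at 1085, 1024 and 939 FPKM in triple-deficient libraries 1, 2 and 3. The groups overlap, with the lowest library a control and the highest triple-deficient. Group means were 968 ± 61.4 and 1016 ± 73.0 FPKM (SD, n = 3), and the log2 change was 0.07 with a 95% interval of -0.10 to 0.24 (limma adjusted p = 0.959). Rbp3 made up 66.4% to 71.8% of the summed FPKM of the 9 genes in each library. It lies on chromosome 14, at 33954003 to 33964219 of GRCm38.

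Rlbp1, or CRALBP, stood at 242, 248 and 240.5 FPKM in the controls and at 208, 247 and 217 FPKM in the triple-deficient libraries. The 3 controls lay close together, triple-deficient 2 lay among them, and triple-deficient 1 and 3 lay below. Means were 244 ± 3.63 and 224 ± 20.6 FPKM (SD, n = 3), and the log2 change of -0.12 had the smallest p of the 8 genes (95% interval -0.28 to 0.03, limma adjusted p = 0.946). Without triple-deficient 2 the change was -0.20 (limma adjusted p = 0.939), and without triple-deficient 1 it was -0.07. Rlbp1 spans 79374865 to 79392250 of chromosome 7.

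The other markers of Müller glia were all detected, 14 of 14 with a mean of at least 0.5 FPKM, and none was at 0 in any library. Their summed level ran from 2317 to 2391 FPKM in controls and from 2179 to 2321 FPKM in triple-deficient libraries. In triple-deficient 1, where Rlbp1 was lowest, the sum was 2321 FPKM, and in triple-deficient 3, the other library with low Rlbp1, it was 2179 FPKM, the lowest of all 6. Apoe, 1 of the 14, has a GC content of 59.5%, above the median of 49.8% over the genes tested. It was also lowest in triple-deficient 3, the library that stood apart in base composition, at 437 FPKM. The 4 defining markers, which include Glul but not Apoe, summed to 792 FPKM there, within the controls' 766 to 848 FPKM. The most abundant were Glul, the glutamine synthetase, at 661 ± 41.3 and 661 ± 19.6 FPKM, Apoe, a lipid carrier, at 599 ± 30.5 and 499 ± 55.9 FPKM, and Dbi, the acyl-CoA-binding protein, at 302 ± 12.8 and 303 ± 12.9 FPKM in controls and triple-deficient retinas (SD, n = 3). None of the 14 passed the test over all genes. The part of glial content in the Rlbp1 values was not tested.

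**Figure D2:**
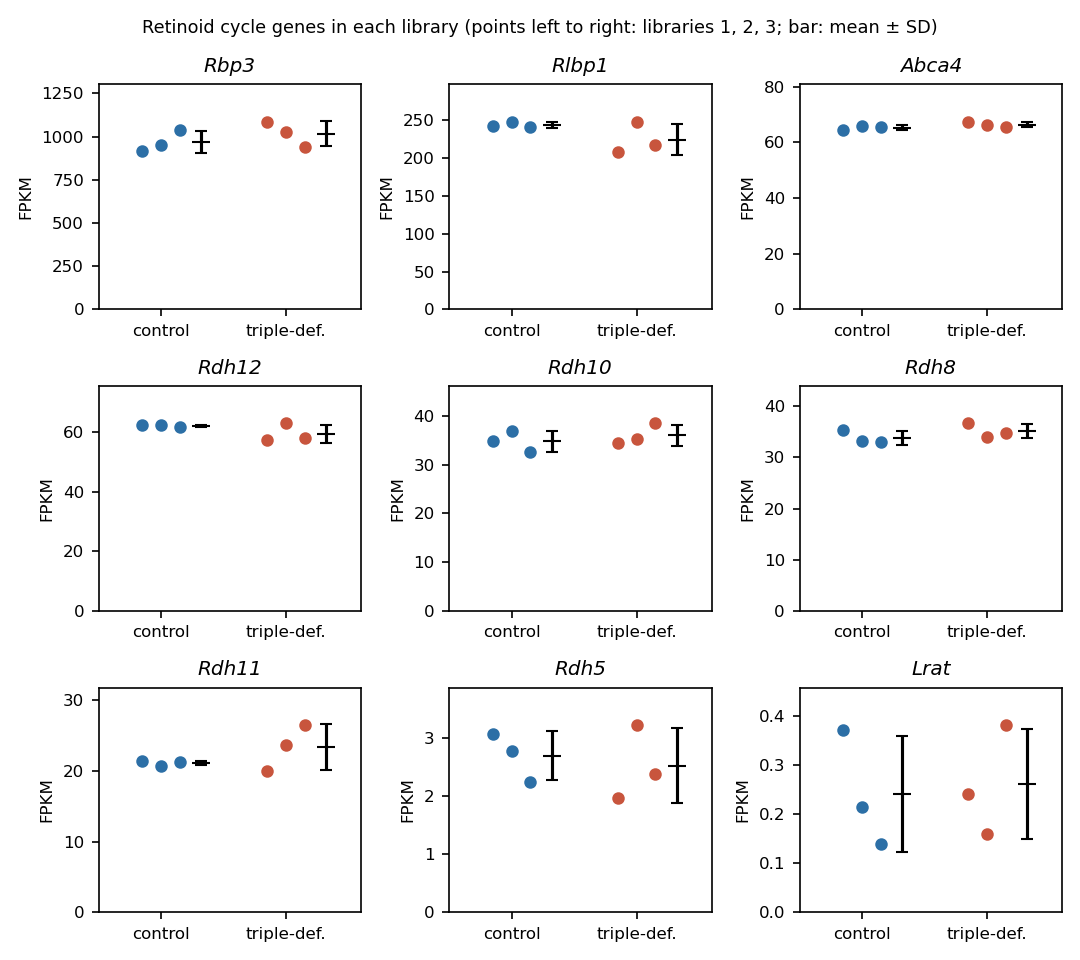
FPKM of the 9 genes in each library, on linear axes from 0, with control libraries 1 to 3 in blue, triple-deficient libraries 1 to 3 in red, and the mean ± SD of each group in black. The groups overlap in every panel, most tightly for Abca4 at 64.3 to 67.3 FPKM, and the relative spread is widest for Lrat.

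Abca4, the retinal transporter of photoreceptor discs, was the steadiest of the 9. Its values were 64.3, 65.9 and 65.6 FPKM in the controls and 67.3, 66.3 and 65.4 FPKM in the triple-deficient libraries. Its highest library was 1.05 times its lowest, and its coefficient of variation over the 6 libraries was 1.50%, where the median of the 7854 genes with at least 10 FPKM was 5.30%. The log2 change was 0.02 with a 95% interval of -0.07 to 0.11 (limma adjusted p = 0.968), so the interval ends at 0.953-fold and 1.08-fold. Markers shared by rods and cones, 10 of 10 detected and none at 0, summed to 3312 to 3415 FPKM in controls and 3109 to 3467 FPKM in the other group, led by Unc119, Tulp1 and Aipl1, which serve protein trafficking and folding in photoreceptors. The library with the lowest sum, triple-deficient 3, held 65.4 FPKM of Abca4. Unc119, with a GC content of 59.7%, was also lowest in that library, which stood apart in base composition, at 472 FPKM. Abca4 spans 122043891 to 122180070 of chromosome 3.

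Of the dehydrogenases, Rdh8 and Rdh12 are the enzymes known from photoreceptor outer and inner segments. The 3 controls had 35.4, 33.1 and 33.0 FPKM of Rdh8 and the 3 triple-deficient libraries 36.6, 34.0 and 34.8 FPKM. The groups overlap, and the log2 change was 0.05 (95% interval -0.06 to 0.17, limma adjusted p = 0.958). Rdh12, whose human counterpart is a gene of early-onset retinal dystrophy, measured 62.4, 62.5 and 61.8 FPKM in the controls, and triple-deficient libraries held 57.4, 63.0 and 58.3 FPKM. Its controls spanned a narrow range, with a coefficient of variation of 0.608%, and the triple-deficient libraries lay on both sides of it. The log2 change of Rdh12 was -0.06 (95% interval -0.17 to 0.05, limma adjusted p = 0.954). Like Rlbp1, Rdh12 was lowest in triple-deficient 1 and 3. Summed cone markers there were 5961 and 6291 FPKM, against 6417 to 6560 FPKM in the other libraries. Rdh8, Abca4 and Rbp3, by contrast, were highest in triple-deficient 1, at 36.6, 67.3 and 1085 FPKM. All 10 cone markers had a mean of at least 0.5 FPKM and none was at 0. The most abundant were the cone transducin subunits Gngt2, at 1650.5 ± 87.4 and 1557 ± 109.9 FPKM, and Gnb3, at 1054 ± 24.3 and 1046 ± 41.0 FPKM, with Opn1sw at 1545 ± 35.9 and 1474.5 ± 81.5 FPKM (SD, n = 3). The part of cone content in these values was not tested.

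Rdh11, a microsomal retinal reductase close to Rdh12 in sequence, measured 21.4, 20.8 and 21.3 FPKM in the controls against 20.1, 23.7 and 26.5 FPKM in the homozygous mutants. Triple-deficient 1 was the lowest of all libraries and triple-deficient 3 the highest. The log2 change of 0.13 (95% interval -0.07 to 0.34, limma adjusted p = 0.946) became 0.24 without triple-deficient 1 (limma adjusted p = 0.505) and 0.04 without triple-deficient 3. With the trends of GC content and transcript length removed it was 0.12. The transcript of Rdh11 has a GC content of 46.3%, below the median of 49.8% over the genes tested. Rdh11 and Rdh12 are neighbours on chromosome 12 (79174233 to 79191855 and 79208913 to 79222664), 17057 bases apart and on opposite strands. The level of Rdh12 was 2.92, 3.01 and 2.90 times that of Rdh11 in controls and 2.86, 2.66 and 2.20 times in triple-deficient libraries. Fragments that fit both paralogs could be split between them, and how the authors' counting treated these is not given in the sources used here.

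Rdh10 oxidises all-trans-retinol and is best known for the first step of retinoic acid synthesis, with expression in Müller glia and pigment epithelium. Control libraries had 34.8, 36.8 and 32.7 FPKM and triple-deficient libraries 34.5, 35.2 and 38.5 FPKM, with a log2 change of 0.05 (95% interval -0.09 to 0.19, limma adjusted p = 0.959). Control 3 was lowest and triple-deficient 3 highest, and without the latter the change was 0.004. Rdh10 (chromosome 1, 16105882 to 16132550) has a GC content of 46.8%, close to that of Rdh11, and both were highest in triple-deficient 3, the library with the GC trend. With the trends of GC content and length removed the change of Rdh10 was 0.04.

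The enzymes of the pigment epithelium were at the bottom of the range. Rdh5, the 11-cis-retinol dehydrogenase, reached 3.08, 2.78 and 2.25 FPKM in the controls, against 1.98, 3.23 and 2.38 FPKM in the triple-deficient group. The triple-deficient libraries held both the lowest and the highest value. The log2 change was -0.08 (95% interval -0.40 to 0.24, limma adjusted p = 0.968) and 0.04 without triple-deficient 1. An estimated 57 to 92 fragments per library lie behind these values. Rdh5 (chromosome 10, 128913588 to 128920037) shares 124 bases of its span with Bloc1s1 on the same strand. Bloc1s1, a subunit of a lysosomal trafficking complex, was at 65.7 to 73.8 FPKM, so fragments assigned across this boundary could weigh on the low Rdh5 values.

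Lrat (chromosome 3, 82892582 to 82903974) had values of 0.372, 0.214 and 0.139 FPKM among the controls, against 0.243, 0.160 and 0.382 FPKM in the triple-deficient group, an estimated 17 to 45 fragments each. Values of either group span the other. With no filter on low values its log2 change was 0.02 (95% interval -0.19 to 0.23, limma adjusted p = 0.981). Its highest library was 2.75 times its lowest, the widest range of the 9. Over the 6 libraries and 13289 genes searched, the log2 values most like those of Lrat were those of Zfp942, Slc13a5 and Rsbn1, with Pearson correlations of 0.991, 0.988 and 0.980. At so few fragments and libraries these are descriptions of a search and no more.

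Rpe65, not one of the 9, stood at 3.05, 2.80 and 1.91 FPKM among the controls and at 1.52, 1.63 and 3.81 FPKM in the other group. It was highest in triple-deficient 3 together with Lrat, whereas Rdh5 was highest in triple-deficient 2. Triple-deficient 3 is the library with the GC trend. The GC contents of Rpe65 and Lrat, 42.2% and 42.0%, lie below the median of 49.8% over the genes tested. With the trends of GC content and length removed the change of Rpe65 was -0.18. The level of Rdh5 was 0.993 to 1.18 times that of Rpe65 in controls and 0.625 to 1.98 times in triple-deficient libraries. Of 13 further markers of the pigment epithelium, Rpe65 among them, 9 had a mean of at least 0.5 FPKM, and Mlana was at 0 in 1 library. Their summed level was 60.4 to 73.6 FPKM in controls and 49.1 to 64.2 FPKM in triple-deficient libraries, lowest in triple-deficient 1, which also held the lowest Rdh5. The sum of the 5 defining markers (Rpe65, Rgr, Best1, Ttr and Tyrp1) was 19.4 to 27.9 FPKM in controls and 12.0 to 18.8 FPKM in triple-deficient libraries, with no overlap, and none of the 5 was at 0. Ttr made up most of it, and the other 4 summed to 7.29 to 9.89 and 4.57 to 8.11 FPKM, which overlap. The mean was lower in triple-deficient retinas for 9 of the 13 markers. Of the 9 tested, none passed over all genes, 3 had an unadjusted p below 0.05 (background 5.09%), and for 4 the groups did not overlap (background 10.5%). These 4 were Ttr and the melanosome genes Tyrp1, at 3.46 ± 0.333 and 1.95 ± 0.399 FPKM, Pmel, at 3.84 ± 1.42 and 1.61 ± 0.173 FPKM, and Tyr, at 0.669 ± 0.210 and 0.408 ± 0.027 FPKM (SD, n = 3). The most abundant of the list were Dct, a melanin enzyme, at 21.3 ± 4.57 and 25.4 ± 5.67 FPKM, Rrh, an opsin of the pigment epithelium, at 14.0 ± 1.50 and 14.9 ± 0.880 FPKM, and Ttr, a carrier of retinol and thyroxine, at 15.8 ± 3.26 and 8.81 ± 1.66 FPKM (SD, n = 3). The part of attached pigment epithelium in the values of Rdh5 and Lrat was not tested.

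**Figure D3:**
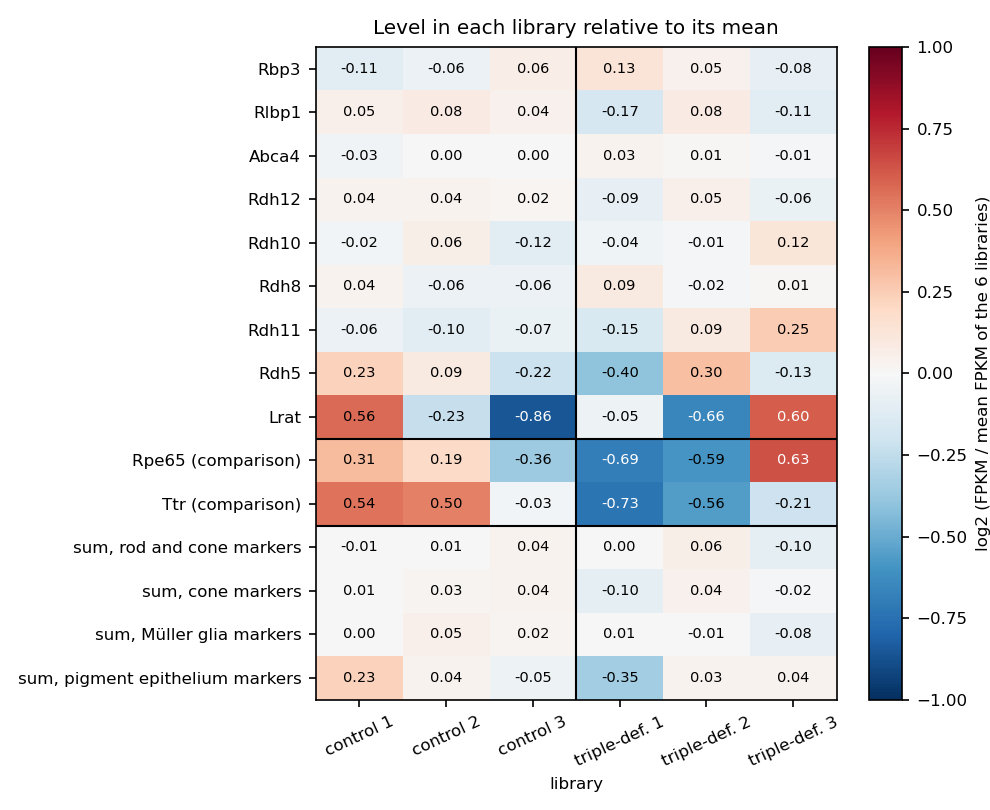
Level in each library as log2 of FPKM over the mean FPKM of the 6 libraries, for the 9 genes, for Rpe65 and Ttr, and for summed marker lists. Values of the 6 most abundant genes and of the photoreceptor and Müller glia sums stay within 0.17 of 0, whereas Rdh5, Lrat, Rpe65 and Ttr reach from -0.86 to 0.63.

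On the FPKM scale, which is per length, the order of levels in the controls was Rbp3, Rlbp1, Abca4, Rdh12, Rdh10, Rdh8, Rdh11, Rdh5 and Lrat. Each gene exceeded the next in all 6 libraries, with no overlap within either group, except that Rdh10 and Rdh8 did not differ beyond their spread (Rdh10 was higher in 3 of 6 libraries). Rbp3 was 3.79 to 5.20 times as high as Rlbp1, and Rlbp1 3.10 to 3.77 times as high as Abca4. Abca4 exceeded Rdh12 by little, at 1.03 to 1.17 times its level. Rdh11 was 6.94 to 11.1 times as high as Rdh5.

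The promoters of these genes bear on the comparison because Panky is known to act on CRX, which binds sites with the core TAATC. RefSeq start sites of GRCm38.p6 were given for 8 of the 9 genes, in 9 windows of 250 bases before the start, and Rdh10 had no entry. These starts belong to single transcripts, so the windows of Abca4, Rlbp1 and Rdh5 and 1 of those of Rdh11 lie inside the gene spans given above, which reach to the outermost start. On either strand the letters TAATCC were found in 2 of the 9 windows, those of Rbp3 and Abca4, against 6.25% of 32851 windows of all genes. The shorter TAATC, which TAATCC contains, was found in 4 windows (Rbp3, Abca4, Rdh12 and 1 of 2 for Rdh11), against 19.8%. The windows of Rdh5, Rdh8, Rlbp1 and Lrat and the other window of Rdh11 held neither. Shown are the windows of Rbp3 (chr14:33953753-33954002, plus strand) and Rdh12 (chr12:79208663-79208912, plus strand), and 30 bases of that of Abca4 (chr3:122044390-122044419, plus strand), since these 3 hold such letters and belong to genes of photoreceptors. Capitals mark each match on either strand.
Rbp3: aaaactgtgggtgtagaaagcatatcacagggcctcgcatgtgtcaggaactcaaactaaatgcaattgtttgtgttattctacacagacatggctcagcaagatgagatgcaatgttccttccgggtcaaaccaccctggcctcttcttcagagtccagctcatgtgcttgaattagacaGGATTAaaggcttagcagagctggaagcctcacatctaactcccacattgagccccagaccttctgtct
Rdh12: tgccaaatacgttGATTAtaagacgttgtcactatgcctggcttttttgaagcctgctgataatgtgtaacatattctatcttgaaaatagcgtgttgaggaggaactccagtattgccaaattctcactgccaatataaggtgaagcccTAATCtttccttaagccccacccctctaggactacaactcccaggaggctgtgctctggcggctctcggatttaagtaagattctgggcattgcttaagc
Abca4: gtaattagagggGGATTAtgcttgaagggg
The match of Rbp3 begins 69 bases before the start of its transcript, and that shown for Abca4 58 bases before the start its window was built on. A match describes letters and no binding. The 3 genes shown had log2 changes of 0.07 (Rbp3), -0.06 (Rdh12) and 0.02 (Abca4), as given above. Rdh11, which also holds TAATC in 1 of its 2 windows but is not shown, had a log2 change of 0.13.

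The other genes of vitamin A handling and retinoic acid metabolism form a list of 39, of which 38 were in the tables and 27 could be tested. None passed the adjusted threshold in either direction, and 2 of 27 had an unadjusted p below 0.05, where the background was 5.09%. Their median change was -0.05, with 11 above 0 and 16 below (background 51.8% above 0). The groups did not overlap for 2 of the 27, Ttr and Rarb, where the background was 10.5%. By role, the median was -0.04 over 18 genes of vitamin A handling and -0.07 over 9 of retinoic acid.

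Ttr had the smallest p of the list. The controls had 18.0, 17.4 and 12.1 FPKM and the triple-deficient libraries 7.42, 8.37 and 10.6 FPKM. Every triple-deficient library lay below every control, as for the pigment epithelium markers Tyrp1, Pmel and Tyr above. Of the 13 markers on that list, 9 had a lower mean in triple-deficient retinas, but Dct and Rrh had a higher one. The log2 change of Ttr was -0.77 (95% interval -1.14 to -0.40, limma adjusted p = 0.508). Rdh14, a dehydrogenase related to Rdh11 and Rdh12, had 19.2, 19.1 and 17.2 FPKM among controls, against 15.4, 17.9 and 15.3 FPKM in the other group (log2 change -0.19, 95% interval -0.36 to -0.01, limma adjusted p = 0.927). Rgr, a retinal-binding opsin of pigment epithelium and Müller glia, was at 1.62 to 2.74 and 1.29 to 1.77 FPKM. Rarb, a retinoic acid receptor, was at 3.09 to 3.19 and 2.64 to 2.88 FPKM, and its log2 change was -0.13 (limma adjusted p = 0.943).

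Rbp4, the retinol carrier of plasma, was at 2.17 to 2.63 FPKM in controls and 1.84 to 2.36 FPKM in triple-deficient libraries, and Cyp26a1, which degrades retinoic acid, at 3.17 to 3.44 and 2.25 to 3.31 FPKM. Neither passed (limma adjusted p = 0.946 for each). Rpe65 itself had a log2 change of -0.16 with a wide interval, -0.72 to 0.39 (limma adjusted p = 0.965), which was -0.46 without triple-deficient 3 and 0.003 without triple-deficient 1.

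**Figure D4:**
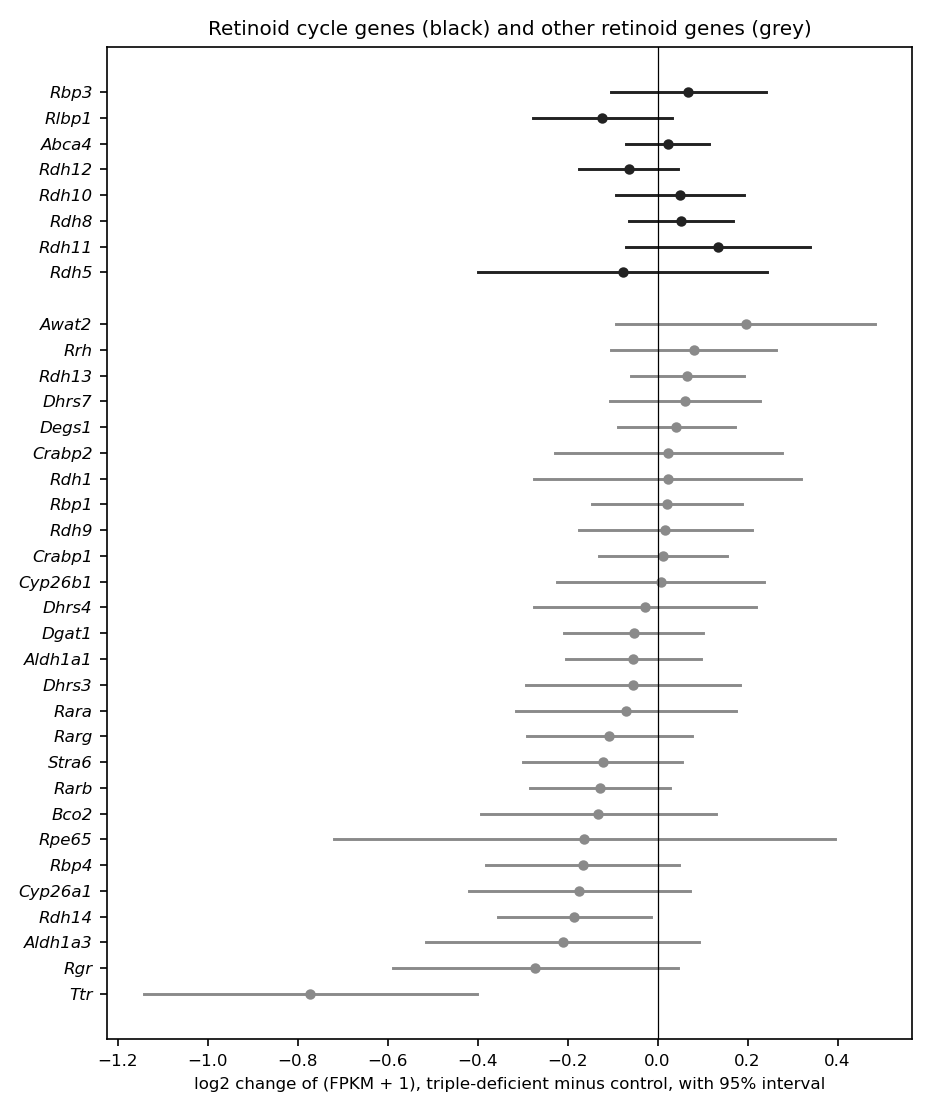
Log2 change of FPKM + 1 (triple-deficient minus control) with its 95% interval for the 8 retinoid cycle genes tested (black) and 27 other retinoid genes (grey). All 8 black intervals include 0, and among the grey ones those of Ttr and Rdh14 do not, although neither gene passed the adjusted threshold.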

How the data were processed

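The 6 libraries were made from retinal RNA with a stranded mRNA kit, per the labels' protocols. The authors deposited 1 FPKM value per gene symbol and library. The submitters' processing notes list Cuffdiff, Cufflinks 2.2.1, TopHat2 2.1.1 and Bowtie2 2.3.5.1 and the build mm10. Settings, annotation and scaling are not stated there. FPKM were used as deposited. The 14325 genes whose mean reached 0.5 FPKM were tested as log2(FPKM + 1), two-sided, with limma 3.58.1 (R 4.3.3) and its mean-variance trend, with Benjamini-Hochberg adjustment over all genes tested. The log2(FPKM + 1) scale understates changes of genes with low values. The test was checked on simulated data. Depth is an estimate from the steps of values below 0.3 FPKM, with its scale set on 136 genes. At the depths chosen, 61.1% to 64.1% of the ratios of such values to control 1 fell on ratios of small whole numbers. Fragments per gene were estimated from depth, FPKM and the longest transcript, and none of these estimates entered the test.

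Whether each library is its own animal is not stated, so p-values cover only the spread between these samples. The design text speaks of littermate pairs, but no label ties a number to a pair. Deviations of libraries with the same number correlated over genes at 0.02, 0.11 and 0.07, and those with different numbers at -0.19 to 0.12. With 3 libraries per group these values cannot decide whether numbers mark pairs. The main fit used no block. Coordinates and promoter sequences are those of RefSeq for GRCm38.p6 (mm10). The longest GENCODE M21 transcript gave GC content and length for 96.3% of tested genes. Members were set by symbol and not by a measured value, but, like the gene lists, with earlier results of these data known. The genes named are the 9 members, the targeted genes, Rpe65, the 6 other retinoid genes with the smallest p, the 3 genes most like the member with the widest range, and the 3 most abundant markers of each list set beside a member. Bloc1s1, Mlana, Tyrp1, Pmel, Tyr, Gnat1 and Gngt1 were added after their values were seen.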

Additional observations from a re-analysis of the deposited data

How the results depend on the processing

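The 8 testable retinoid cycle genes held no gene past the adjusted threshold in any of 15 alternatives (another pseudocount, 2 other filters, no trend, robust shrinkage, quantile normalization, array weights, the replicate block, removal of GC and length trends, and each library left out), and neither did the other retinoid genes. Of 120 recomputed changes of the 8 genes, 119 kept their direction, all lay between -0.22 and 0.24, and the smallest adjusted p was 0.505. The exception was Rdh5, whose change turned to 0.037 without triple-deficient 1. The filters, no trend, robust shrinkage and the replicate block act on p only and cannot alter a change. Their share of the 119 was therefore fixed in advance. The change of Rpe65, -0.16 over all libraries, ran from -0.46 without triple-deficient 3 to 0.0034 without triple-deficient 1. The adjusted p of Ttr ran from 0.0746 with array weights to 0.998. Over all genes, the count past the threshold was 4, against 2 with no filter, 2 with robust shrinkage, and 3 to 11 when 1 library was left out (7 without control 3, 10 without triple-deficient 1 and 11 without triple-deficient 3). With the replicate block it was 4, and no call on the genes described here changed, though the data cannot decide whether numbers mark pairs. Depth limits Lrat and Rdh5, with an estimated 17 to 45 and 57 to 92 fragments.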

Other observations

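Rbp7, a cellular retinol-binding protein of the list of other retinoid genes, lay below the filter and was singled out after its values were seen. It was listed at 0, 0.188 and 0 FPKM in control libraries 1, 2 and 3 and at 0.602, 0.331 and 0.772 FPKM in triple-deficient libraries 1, 2 and 3, so that the groups did not overlap. With no filter its log2 change was 0.56 (95% interval 0.28 to 0.83, limma adjusted p = 0.735). Since it was singled out on these values, neither the gap between groups nor the interval is a test of it. Over the genes above the filter the groups did not overlap for 10.5%. The longest Rbp7 transcript has 619 bases, so few fragments lie behind such low values. No fold is given, since 2 of the 3 controls are at 0.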
